A study of Chlamydomonas reinhardtii with 4 samples.

Results

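The regions described here are 300 places in the nuclear genome of the unicellular green alga Chlamydomonas reinhardtii where the H3K27ac peak was narrower in the DNMT1 knockout than in wild type (WT) in both strains studied. They were chosen by peak width alone from 13909 eligible regions. Overlapping peaks of the 4 deposited lists were merged, sharing at least 1 bp, which gave 15521 regions. A region was eligible when it lay on chromosomes 1 to 17 and held exactly 1 peak of each list. For each one the log2 ratio of dnmt1 width over WT width was taken in each strain, and the 300 regions with the lowest value of the higher ratio were kept. Those widths are therefore a description of what was chosen and not a finding, and since each group is 1 library nothing was tested between conditions.

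The 4 libraries came from vegetative cells grown in acetate medium under continuous light. CC-5155 cells, which are mating type plus (mt+), were compared as WT and as a DNMT1 knockout (dnmt1), and so were CC-5325 cells, which are mating type minus (mt−). The strain and its mating type cannot be told apart in this design, and each group was 1 library precipitated with an antibody against H3K27ac. How the knockouts were made, and whether each is 1 clone, is not given in the labels.

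H3K27ac is acetylation of a lysine in the tail of histone H3, a mark of nucleosomes next to active promoters and, in animals, enhancers. The width of a peak shows how far the acetylated nucleosomes stand out from the background on each side of the most enriched position, the summit. DNMT1 belongs to the cytosine DNA methyltransferases, and in animals and plants enzymes of this family copy methylation to the new strand after replication. In many organisms methylated DNA and acetylated histones occupy different stretches, which makes the borders of acetylated regions a place to compare when the enzyme is absent.

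The lists held 14986 to 15323 peaks, and read depth is unknown because they give no counts. Peak width depends on depth, on the input control and on the caller's threshold, and the part these have in the widths was not tested. Positions below are those of the lists, counted from 1, whose genome build the labels do not name, so no region is placed in a gene. Over all eligible regions the median log2 width ratio of dnmt1 over WT was -0.017 in mt+ and 0.0022 in mt−.

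Narrowing in both strains was about as frequent as narrowing in both of the mismatched pairs, with the order depending on the limit. A width of at most 0.8 of WT in both strains was found at 43 of the 13909 regions, or 0.309%. With the knockouts exchanged, so that dnmt1 mt− was set over WT mt+ and dnmt1 mt+ over WT mt−, 45 regions (0.324%) met the same limit. At a limit of 0.9 the counts were 309 and 279, and 28.1% of regions were narrower at all in both same-strain pairs against 27.2% in both crossed pairs. The opposite direction, a WT width of at most 0.8 of the dnmt1 width in both strains, held 85 regions (0.611%), and 84 (0.604%) with the knockouts exchanged. Wider at all in both same-strain pairs were 22.4% of regions, below the 28.1% that were narrower, so which direction was more frequent also depended on the limit. Both pairings use the same 4 lists, and the 2 log2 ratios of a region have the same sum in either pairing, so the rankings are bound to share regions. Those exchanged pairs still compare each knockout with a WT, so they show how far matching by strain matters and not how often narrowing occurs without the knockout.

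The rankings ran close together along their whole length. At rank 10 the higher log2 ratio was -0.47 in the same-strain ranking and -0.45 in the crossed ranking, at rank 50 it was -0.31 in both, at rank 150 it was -0.21 and -0.20, and at rank 300 it was -0.155 and -0.145. The first rank stood apart, at -0.81 against -0.55, and the same region led both rankings. Of the 300 members, 153 were also among the 300 lowest of the crossed ranking, and the median crossed rank of the members was 284. The same ranking of mt− over mt+ within each genotype, a contrast of strains and not of knockouts, reached -0.09 at rank 300, and 17 regions (0.122%) were at most 0.8 as wide in mt− as in mt+ in both genotypes, while at 132 (0.949%) the mt+ peak was at most 0.8 as wide as the mt− peak.

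**Figure D1:**
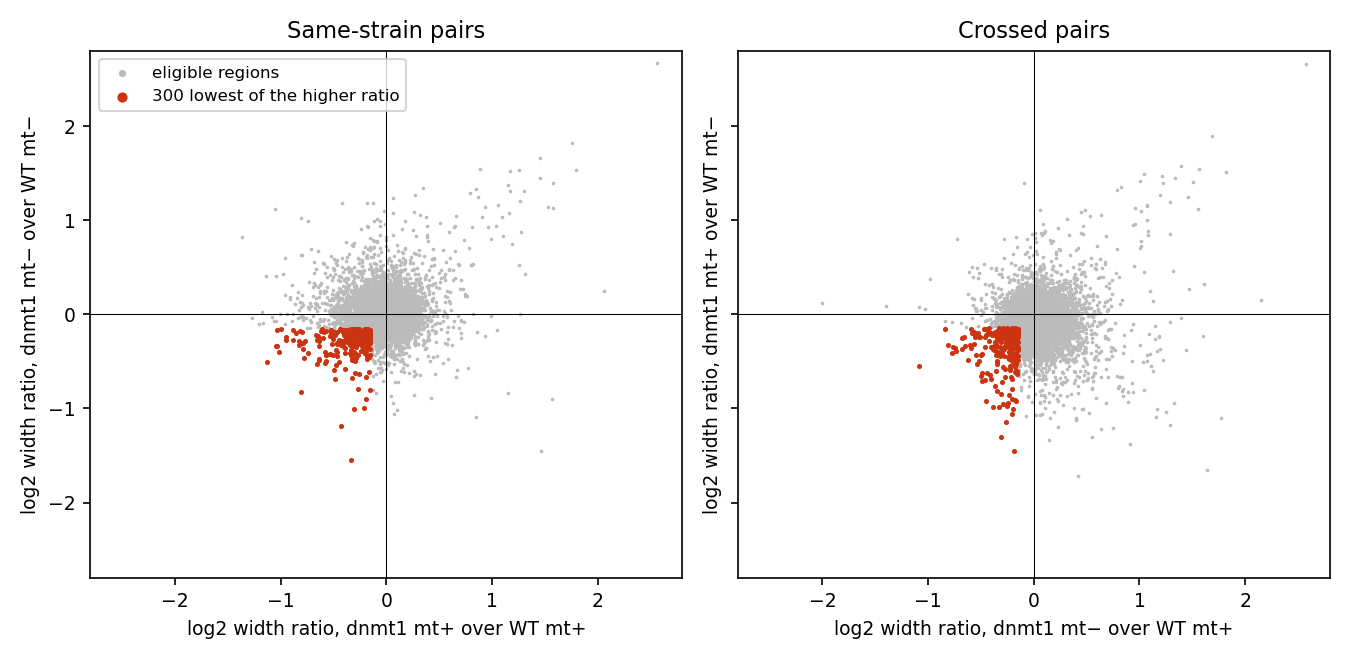
Each point is 1 of the 13909 eligible regions, with the log2 width ratio of one pair of libraries on the horizontal axis and of the other pair on the vertical axis, for same-strain pairs (left) and crossed pairs (right). The 300 lowest of each ranking (red) fill the corner below and left of -0.155 and -0.145, and the clouds have a similar shape.

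**Figure D2:**
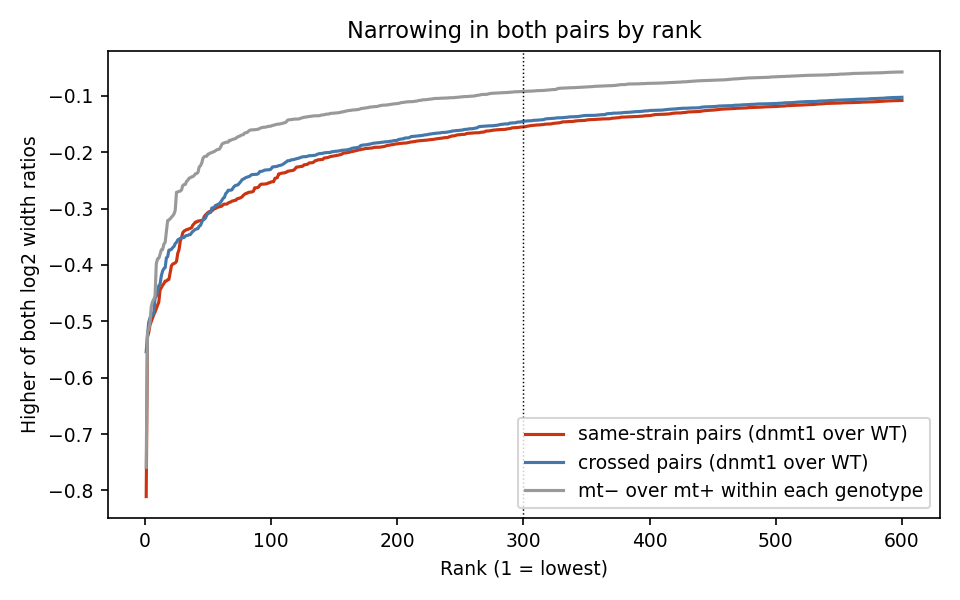
The higher of both log2 width ratios of a region against its rank, for the same-strain pairs, the crossed pairs and the pairs of strains within a genotype. The dotted line marks rank 300, where the first 2 curves stand at -0.155 and -0.145 and the last at -0.092.

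Across all eligible regions the log2 width ratio of one strain was only weakly related to that of the other. Pearson's r was 0.15 and Spearman's rho 0.041 over 13909 regions, against 0.055 and 0.0029 for the crossed pairs. These values describe regions and not samples, and the regions share their libraries. In 4 equal classes by strength of the WT peaks, from weakest to strongest, r was 0.20, 0.15, 0.037 and 0.044 for the same-strain pairs. For the crossed pairs it was 0.11, 0.052, -0.038 and 0.047, which is lower in the first 3 classes and about the same in the strongest. Spearman's rho by class was 0.084, 0.065, 0.020 and 0.030 for the same-strain pairs. For the crossed pairs rho was 0.019, 0.024, 0.015 and 0.056, so in the strongest class it was higher than for the same-strain pairs.

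The members were narrow to begin with. Their median width was 611.5 bp in WT mt+ and 629.5 bp in WT mt−, against 828 and 840 bp for all eligible regions, and 496 bp in dnmt1 mt+ and 520 bp in dnmt1 mt−, against 817 and 839 bp. In base pairs the median member was 113 bp narrower in mt+, with an interquartile range of 82 to 159, and 102 bp narrower in mt−, with 76 to 150. Added up, the members' peaks covered 20.5% less sequence in dnmt1 than in WT in mt+ and 17.7% less in mt−. Summed over all eligible regions dnmt1 peaks covered 1.05% less in mt+, and the value for mt− was -0.469%, that is, dnmt1 peaks covered slightly more.

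The size of the narrowing varied among members and was not the same in both strains. The median log2 ratio was -0.29 in mt+, with values from -1.13 to -0.15, and -0.24 in mt−, with values from -1.55 to -0.16. A width of at most 0.8 of WT was reached by 116 members in mt+, beside 3.59% of all eligible regions, and by 84 in mt−, beside 1.78%. Of the 300 members, 182 (60.7%) had the lower ratio in mt+, beside 55.8% of all eligible regions and 60% of the crossed ranking. Within a member the ratios of the strains differed by a median of 0.10, close to the 0.093 over all eligible regions. At 254 members (84.7%) both knockout peaks were narrower than both WT peaks, against 18.6% of all eligible regions and 89.3% of the crossed ranking. These are the widths that chose the members, so this is no separate finding. At the other 46 the WT width of one strain did not exceed the dnmt1 width of the other.

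Most members were weak peaks. The percentile of −log10 q within a list, where 100 is the strongest peak, had a median over members of 17.5 in WT mt+, 17.3 in WT mt−, 14.3 in dnmt1 mt+ and 15.5 in dnmt1 mt−, whereas the medians of all eligible regions lay between 51.7 and 52.9. When eligible regions were split into 4 equal classes by the mean of both WT percentiles, 209 members fell in the weakest class, 50 in the next, 19 in the one above and 22 in the strongest. The crossed ranking had 200, 59, 20 and 21. Only 30 members (10%), and 30 regions of the crossed ranking, were above the median −log10 q of every list, against 41.7% of all eligible regions. At least 1 of the 4 peaks had a −log10 q under 10 at 69 members (23%), against 4.87% of all eligible regions.

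Peak widths also scattered more where peaks were weak. The standard deviation over regions of the log2 width ratio in the weakest class was 0.29 in mt+ and 0.27 in mt−. In the strongest class it was 0.087 and 0.089. The limit of 0.8 in both strains was met by 38 regions of the weakest class, by 1 of the next, by 2 of the one above and by 2 of the strongest, and for the crossed pairs by 38, 1, 2 and 4. The share of peak strength in the narrowing of single members was not tested.

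**Figure D3:**
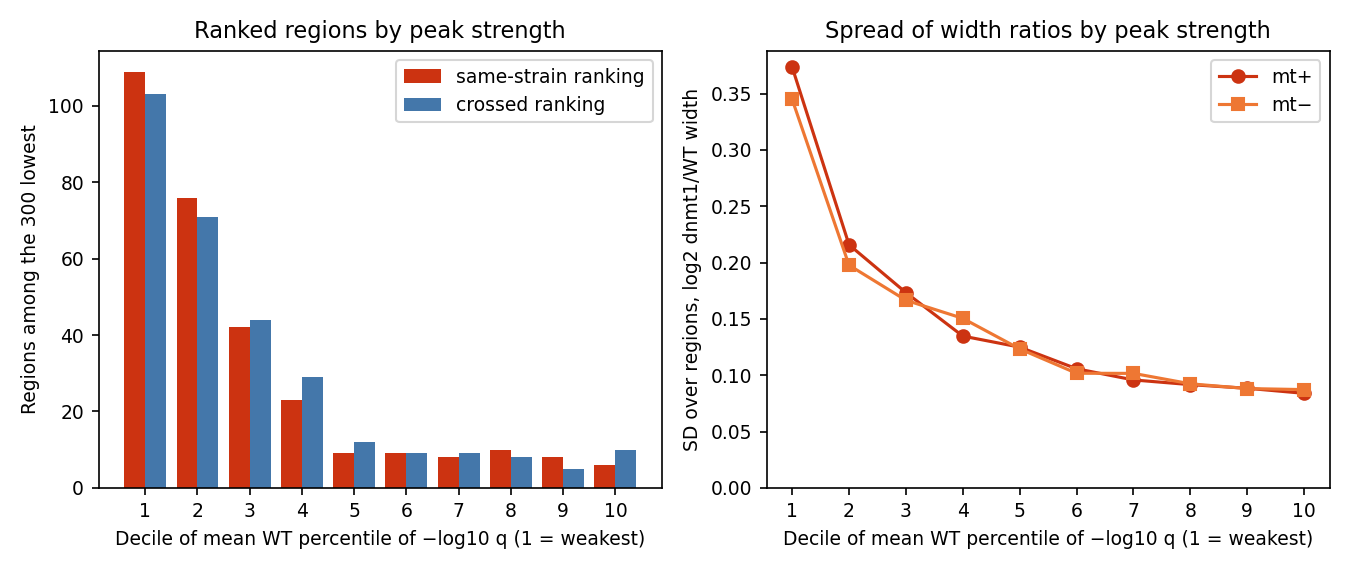
Eligible regions were split into 10 classes of 1390 or 1391 by the mean of both WT percentiles of −log10 q. The left panel counts the regions of each class among the 300 lowest of either ranking, 109 and 103 in the weakest class, and the right panel gives the standard deviation over regions of the log2 width ratio in each strain, from 0.37 and 0.34 in the weakest class to 0.084 and 0.087 in the strongest.

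The lowest ratios belonged mostly to weak, short peaks. First in rank was chromosome 16, 1289405 to 1290123, with peaks of 686 bp in WT mt+, 574 bp in WT mt−, 391 bp in dnmt1 mt+ and 323 bp in dnmt1 mt−. Both knockout peaks were shorter than both WT peaks, at 57% and 56.3% of the WT width of their strain, while the fold enrichment the authors gave at the summit was 2.62, 2.30, 1.96 and 2.73 in the same order. In mt− the narrower peak thus had the higher fold enrichment, and its percentile of −log10 q was also higher, 6.77 against 4.61. In mt+ the percentile was lower in dnmt1, 1.45 against 5.41. Most of the withdrawn sequence lay at the right edge, 295 bp in mt+ and 193 bp in mt−.

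Second came chromosome 7, 1103734 to 1104343, with widths of 501 and 610 bp in WT mt+ and WT mt− and 318 and 423 bp in dnmt1 mt+ and dnmt1 mt−. Here the withdrawn edges did not match, since the left edge moved by 148 bp in mt+ and the right edge by 134 bp in mt−. Next was chromosome 6, 7858606 to 7859116, with 470 and 509 bp in WT and 315 and 355 bp in dnmt1, and it had the same mismatch, with 96 bp at the left in mt+ and 95 bp at the right in mt−. The region at chromosome 1, 6376043 to 6376893, had the lowest mt+ ratio of all members, with 680 bp in WT and 310 bp in dnmt1, but in mt− the widths were 851 and 599 bp. Its WT mt+ peak was also among the weakest of its list, at percentile 0.217.

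The other 11 of the 15 lowest-ranked members had WT widths from 322 to 757 bp and dnmt1 widths from 234 to 543 bp. On chromosome 6 alone lay another 3, at 7385305 to 7385766, at 771274 to 771729 and at 1695592 to 1696354. The rest were at chromosome 3, 455063 to 455486 and 2266508 to 2267247, chromosome 15, 3689422 to 3690212 and 1622377 to 1622881, chromosome 16, 7344177 to 7344721 and 6495668 to 6496394, and chromosome 17, 2189425 to 2190127 and 4136897 to 4137349. At 2 of them the WT peaks of the strains differed by more than WT and dnmt1. At chromosome 3, 2266508 to 2267247, the WT peaks measured 468 bp in mt+ and 740 bp in mt−, and the dnmt1 peaks 344 and 522 bp, so the dnmt1 mt− peak was wider than the WT mt+ peak. At chromosome 15, 1622377 to 1622881, the widths were 505 and 322 bp in WT and 340 and 238 bp in dnmt1, so the dnmt1 mt+ peak was wider than the WT mt− peak. Such regions rank far down when the knockouts are exchanged, at 11649 and 8900.

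**Figure D4:**
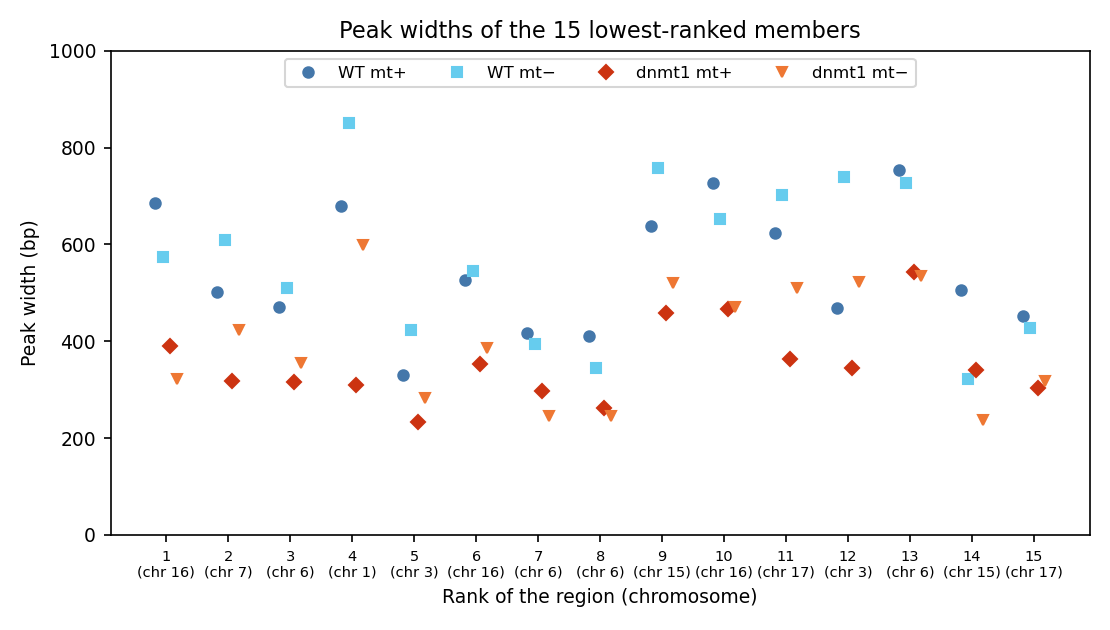
Peak width in base pairs in each of the 4 libraries for the 15 lowest-ranked members, in order of rank. In each region both knockout points lie below the WT point of their own strain, but at ranks 12 and 14 a knockout point (522 bp and 340 bp) lies above the WT point of the other strain (468 bp and 322 bp).

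A few members were strong peaks. At chromosome 6, 1695592 to 1696354, the peak measured 753 bp in WT mt+, 726 bp in WT mt−, 543 bp in dnmt1 mt+ and 535 bp in dnmt1 mt−. The strains differed by 27 bp in WT and by 8 bp in dnmt1, and the nearest WT and knockout widths were 183 bp apart. These widths chose the region, each is from 1 library, and the strains are not replicates. Both knockout peaks were narrower than both WT peaks at 84.7% of members and 89.3% of the crossed ranking, so this is no separate finding. The left edge stood 215 bp farther in within mt+ and 192 bp within mt−, and the right edges differed by -5 and -1 bp, where a negative value means that the knockout reached farther out. Fold enrichment at the summit was 8.42, 8.44, 8.50 and 8.46. The lists differ in scale, since the medians over all eligible regions were 5.75, 5.49, 5.54 and 5.97 in the same order. Within its list the percentile of −log10 q rose from 89.6 in WT to 92.6 in dnmt1 in mt+. In mt− it fell from 94.8 to 87.5. This region ranked 13 in both rankings.

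A second strong member, chromosome 17, 3612559 to 3614055, had widths of 1452 bp in WT mt+, 1458 bp in WT mt−, 1145 bp in dnmt1 mt+ and 1095 bp in dnmt1 mt−. Both knockout peaks were again narrower than both WT peaks, as at most members. The withdrawn sequence lay at the right edge, 319 bp in mt+ and 372 bp in mt−. Its fold enrichment ranged from 6.81 to 8.53, both in WT. The other 3 of the 5 strongest members were narrowed less. Chromosome 3, 865126 to 865915, had 735 and 790 bp in WT and 647 and 678 bp in dnmt1, and chromosome 16, 856608 to 857612, had 940 and 1005 bp in WT and 840 and 868 bp in dnmt1. At chromosome 16, 6687696 to 6688535, WT had 828 and 759 bp and dnmt1 669 and 679 bp.

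The broadest members reached well over 1 kb. The chromosome 17 region just described was among the 5, and chromosome 1, 8134619 to 8136347, was the broadest on average in WT with 1634 bp in mt+ and 1711 bp in mt−, against 1282 and 1410 bp in dnmt1. Both of its edges were withdrawn, by 138 and 214 bp in mt+ and by 84 and 217 bp in mt−. Chromosome 7, 543959 to 545563, had 1580 and 1365 bp in WT and 1200 and 1070 bp in dnmt1, with 379 and 297 bp withdrawn at the left edge and 1 and -2 bp at the right. The last of these 5 regions were chromosome 7, 2853481 to 2854935, with 1433 and 1368 bp in WT and 1267 and 1159 bp in dnmt1, and chromosome 1, 3500916 to 3502278, with 1301 and 1363 bp in WT and 1114 and 1206 bp in dnmt1.

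Narrowing usually came from both ends of the peak. At 189 of the 300 members (63%, exact 95% binomial interval 57.3 to 68.5, which covers counting error only) both edges were withdrawn in both strains, against 7.82% of all eligible regions and 27.8% of the 3911 that were narrower at all in both strains. In the crossed ranking 147 regions (49%, 43.2 to 54.8) had both edges withdrawn within both strains. Edge positions set the widths that chose the members, whereas the crossed ranking was not chosen by same-strain widths. These contrasts therefore describe the choice and are no separate finding. Being narrower at all in both strains applied to 28.1% of the eligible regions. The edge with the larger withdrawal was the same in both strains at 176 members (58.7%, 52.9 to 64.3), the left at 93 and the right at 83. It differed between strains at 122, namely 56 with the left edge in mt+ and the right in mt−, and 66 the other way, and 2 members had equal withdrawals in a strain. Among all eligible regions the share with the same edge was 50.3%, among those narrower at all in both strains it was 53.6%, and in the crossed ranking it was 58.3%. Edges of the same strain pairs were compared in each case, and the share of the members was that of the crossed ranking to within 1 region.

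A small set had 1 steady edge and 1 withdrawn edge in all libraries. Limits for this set were fixed after its values were seen: at one edge both knockout peaks stopped at least 100 bp inside both WT peaks, and at the other edge all 4 peaks ended within 50 bp of each other. These limits were met by 18 eligible regions (0.129%), of which 15 were members, 11 with the left and 4 with the right edge withdrawn. The opposite, both WT peaks stopping inside both knockout peaks, was found at 22 regions (0.158%). Between strains, both mt+ peaks stopped inside both mt− peaks at 33 regions (0.237%) and both mt− peaks inside both mt+ peaks at 4 (0.0288%). One withdrawn edge was thus no more frequent than one extended edge.

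By strength, 8 of the 15 members with 1 withdrawn edge were in the weakest class, 2 in the next, 0 in the one above and 5 in the strongest. Those of the strongest class include the regions of chromosomes 6 and 17 described above. Another is chromosome 11, 843180 to 844400, with 1135 bp in WT mt+, 1211 bp in WT mt−, 1002 bp in dnmt1 mt+ and 889 bp in dnmt1 mt−. Its left edge was withdrawn by 121 bp in mt+ and 298 bp in mt−, and its fold enrichment was lower in the knockouts, at 6.17 and 6.49 against 9.12 and 7.54. Chromosome 8, 3492793 to 3493813, had 988 and 1010 bp in WT and 807 and 848 bp in dnmt1, with 203 and 159 bp withdrawn at the right, where the next region began 148 bp beyond. At chromosome 2, 4230958 to 4232110, the widths were 1112 and 1107 bp in WT and 936 and 942 bp in dnmt1, and the left edge was withdrawn by 217 and 183 bp.

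**Figure D5:**
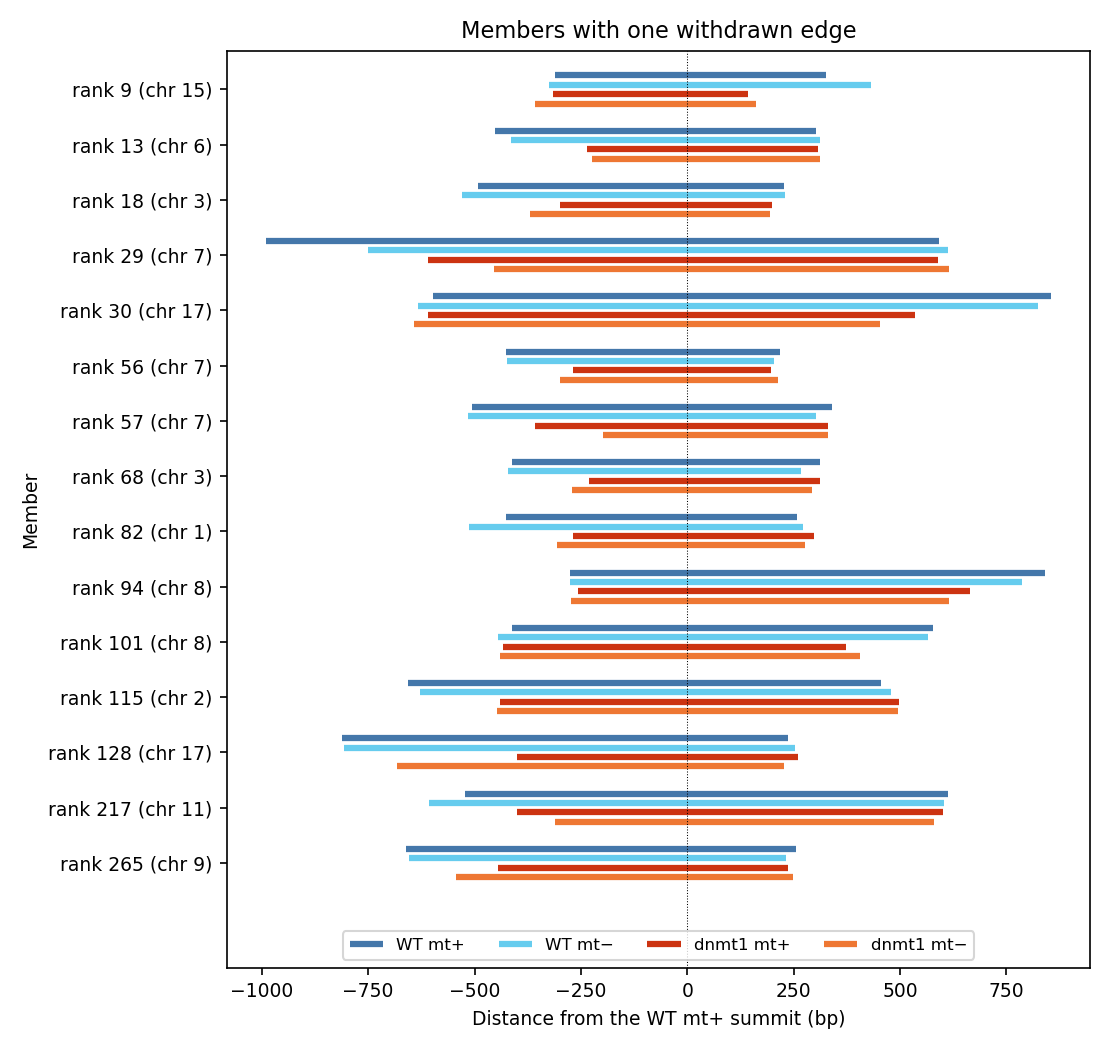
The 15 members with 1 withdrawn and 1 steady edge, in order of rank, each drawn as its 4 peaks by distance in base pairs from the WT mt+ summit. In each member both knockout bars end at least 100 bp inside both WT bars on one side, and all bars end within 50 bp of each other on the other side.

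Peak strength was lower together with width at part of the members. In mt+ 209 of 300 members had a lower percentile of −log10 q in dnmt1 than in WT, against 53.3% of all eligible regions, and in mt− 198 had, against 48.7%. Both strains gave a lower percentile at 139 members (46.3%), beside 27.8% of all eligible regions and 37.4% of those narrower at all in both strains. Both gave a higher one at 32 (10.7%), beside 25.8% of all eligible regions. In the crossed ranking a lower percentile was found at 218 regions in mt+, at 204 in mt− and at 151 (50.3%) in both, so it was not more frequent among the members. The median shift of a member was -3.3 percentile points in mt+ and -1.83 in mt−. These percentiles come from the libraries that chose the members, so they are no independent support. Summits stayed close, with a median distance between WT and dnmt1 of 26 bp in mt+ and 31 bp in mt−, beside 33 and 34 bp over all eligible regions.

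Each of the 17 chromosomes held members. The highest counts were on chromosomes 16 (32 members), 6 (29), 12 (27) and 1 (25). Relative to their eligible regions, chromosomes 4 (3.04%) and 16 (3.02%) had the highest values, and chromosomes 10 (1.49%) and 2 (1.05%) the lowest. In the crossed ranking the same chromosomes had 2.39%, 2.45%, 1.72% and 1.57%. Within 50 kb of a chromosome end, taken as the first base or the end of the last peak, lay 5 members (1.67%). This compares with 1.31% of eligible regions and 11 regions (3.67%) of the crossed ranking.

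Close neighbours were more frequent around members than around eligible regions, and as frequent in the crossed ranking. Another H3K27ac region began within 1 kb of 109 members (36.3%, exact interval 30.9 to 42.1), beside 21.5% of eligible regions, and on both sides of 44 (14.7%, 10.9 to 19.2), beside 3.94%. The crossed ranking had 108 and 42 such regions. The median gap to the nearest region was 1771 bp for members and 2893 bp for eligible regions. A region that at least 1 list lacked lay within 1 kb of 17 members (5.67%), beside 2.29% of eligible regions and 4% of the crossed ranking. Of the members, 7 (2.33%) had a region with WT peaks only within 1 kb and 2 (0.667%) had one with dnmt1 peaks only. The eligible regions gave 0.568% and 0.467%, and the crossed ranking had 4 and 2 such regions. Within 5 kb the counts were closer, at 14 (4.67%) and 12 (4%) of the members, beside 2.13% and 1.89% of eligible regions. The crossed ranking had 12 (4%) and 8 (2.67%).

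Members were mostly scattered, with 10 pairs of neighbouring eligible regions that were both members, beside 13 in the crossed ranking. At least 3 members, each within 10 kb of the next, were found in 4 places. The largest of these clusters lay on chromosome 17 between 2297852 and 2306563, where 4 of 7 eligible regions were members. Their summits in WT mt+ were spaced by a median of 1187.5 bp, the median WT width was 426 bp, and fold enrichment lay between 1.74 and 2.78 in all libraries, so this was a row of short, weak peaks. At its first member, 2297852 to 2298298, the widths were 439 and 413 bp in WT and 263 and 310 bp in dnmt1. The others measured 411 and 442 bp against 325 and 330 bp (2299001 to 2299483), 417 and 458 bp against 241 and 372 bp (2301348 to 2301812), and 328 and 457 bp against 220 and 346 bp (2306107 to 2306563).

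That cluster was part of the densest 200 kb of members, which held 6 of 37 eligible regions from 2189425 on, and 5 regions of the crossed ranking. Besides the region at 2189425 named above, it included 2362981 to 2363883, which had the lowest mt− ratio of all members, with 655 bp in WT and 224 bp in dnmt1. In mt+ the same region had 898 and 711 bp.

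Near the start of chromosome 3, between 58912 and 64485, all 5 eligible regions were narrower in both knockouts and 3 of them were members. The median log2 ratio over the 5 was -0.30 in mt+ and -0.29 in mt−, and the summits were spaced by a median of 1133 bp. At 58912 to 59669 the widths were 721 and 758 bp in WT and 498 and 564 bp in dnmt1, and at 61322 to 62056 they were 724 and 690 bp in WT and 545 and 565 bp in dnmt1. Both had the left edge withdrawn, by 195 and 160 bp and by 179 and 151 bp. Of the 5 regions 3 were in the crossed ranking too. The remaining clusters, of 3 members among 4 eligible regions each, were at chromosome 12, 4809198 to 4815698, and chromosome 16, 7344177 to 7348170. In each of these 3 of the 4 were narrower in both strains, and in the chromosome 17 cluster 4 of 7, so only the members. Over all eligible regions the share was 28.1%. The clusters were picked for holding members, so these counts describe the choice.

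The limit at 300 separated near neighbours. The last members were chromosome 12, 7033890 to 7034699, with 745 and 810 bp in WT and 669 and 698 bp in dnmt1, chromosome 14, 2174427 to 2174951, with 491 and 520 bp against 409 and 467 bp, and chromosome 1, 4854586 to 4854945, with 275 and 360 bp against 247 and 279 bp. First outside were chromosome 11, 1344862 to 1345812, with 905 and 936 bp against 813 and 805 bp, chromosome 3, 848200 to 848535, with 325 and 297 bp against 292 and 265 bp, and chromosome 1, 2773296 to 2773913, with 485 and 574 bp against 436 and 451 bp. The higher log2 ratio was -0.155 on either side of the limit.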

How the data were processed

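H3K27ac ChIP-seq was measured in 4 libraries, 1 per group, and groups were taken from the sample titles. The authors deposited 1 narrowPeak list per library, with each peak's position, summit, −log10 p-value, −log10 q-value, a score that follows the q-value, and the fold enrichment (a ratio) of its summit. MACS2 2.2.7.1, Bowtie2 2.4.2, Trim Galore 0.6.7, deepTools 3.5.1 and Picard are listed in the submitters' processing notes. Their options and the genome build are not stated in the sources used here. Per the labels, an H3K4me1 data set used the same input control.

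Coordinates are those of the lists, given from 1. A gene table of assembly v5.5 was at hand, but 12 chromosomes had peaks beyond its last gene, at most 3905 kb beyond, so that assembly is another build and no region was assigned to a gene or sequence.

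Of 14364 regions with a peak in all 4 lists, 328 had more than 1 peak of a list and 127 of the others lay off the numbered chromosomes. Among the 328 were 22 with 1 peak in each WT list and more in both dnmt1 lists, and 15 with the reverse, which the width rule does not see. The score and p-value were not used. Fold enrichment and percentiles of −log10 q served to describe peaks within a list. Shares carry exact Clopper-Pearson intervals, and their counts treat regions as independent. Members and summaries were chosen with earlier results of these data known. Regions named in the text are the 15 lowest-ranked, the 5 strongest by the lowest percentile over the lists, the 5 broadest in WT, 3 on each side of the limit, the first of the crossed ranking, and the members of the densest 200 kb window. Named outside that rule, after their values were seen, are regions with 1 withdrawn edge and the clusters. The ranking code was run on copies of the WT mt+ list with slightly shifted edges and some strongly narrowed regions. That checks the code and not the results given here. Software was Python 3.11.15 with matplotlib 3.10.9, scipy 1.17.1, pandas 2.3.3 and numpy 2.4.6.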

Additional observations from a re-analysis of the deposited data

Results flagged for a closer look

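Over all eligible regions the strains differed in sign. The median log2 width ratio of dnmt1 over WT was -0.017 in mt+ and 0.0022 in mt−. The median shift in the percentile of −log10 q was -0.66 points in mt+ and 0.218 points in mt−. Each value rests on 1 library per genotype, and the difference between strains was not tested.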

How the results depend on the processing

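Alternatives gave 90 values for 10 results. Of these, 72 lay within 1.5 times the reported value (or, for the share with the same edge, within its interval), and 0 changed sign. Only the log2 ratios could change sign, and each alternative again chose regions for low values, so they were bound to stay negative. The log2 ratios are therefore no support for the narrowing. With a −log10 q of at least 10 the counts at or under 0.8 of the WT width were 27 in same-strain pairs and 26 in crossed pairs, with WT widths of at least 500 bp they were 24 and 20, and with no other region within 1 kb they were 24 and 26. A limit of 0.67 gave 1 and 0, and a limit of 0.9 gave 309 and 279. Ranked by width difference in base pairs, 198 of the 300 members were kept, and the highest log2 ratio among the 300 was -0.0505 in same-strain pairs and -0.0541 in crossed pairs. With 150 members 80 were in both rankings, and with 600 members 325 were. With a limit of 150 bp for the moved edge, 5 regions had 1 withdrawn edge and 9 others had 1 extended edge, with the other edge steady. With a limit of 100 bp for the steady edge the counts were 29 and 55 (both limits chosen after the data were seen). The width ratios are taken within a strain. No paired test was run, because each group is 1 library and the results rest on the widths that chose the members. With 1 library per group none was left out. Read depth is unknown, so how far it sets the widths was not tested.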
